A study of Drosophila melanogaster with 2 samples.

Results

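The miR-309 cluster is a run of 8 microRNA (miRNA) hairpins that Drosophila melanogaster makes from a shared primary transcript: mir-309, mir-3, mir-286, mir-4, mir-5, mir-6-1, mir-6-2 and mir-6-3. The last 3 are copies that make the miRNA miR-6. Its hairpins were found by name in the read tables of 1 larval and 1 adult central nervous system (CNS) library. All 8 were among the 174 hairpins listed over both libraries, with 7 listed in the larval table and 6 in the adult table. Both libraries came from the strain w[1118] Iso31, with males and females in about equal number, and each pooled tissue dissected from about 100 animals. The larval library held the ventral ganglion with its optic lobes, without eye discs, from wandering larvae of the third instar. The adult library held the brain with its antennal lobes, taken 3 to 5 days after eclosion. Stage and dissected tissue changed together and cannot be told apart, and neither stage has a replicate.

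The cluster is known from the early fly embryo, where the zygotic genome switches it on when control of development passes from maternal to zygotic RNA. Its miRNAs then promote the clearance of maternal transcripts, and embryos without the cluster clear many of them late. A miRNA hairpin is cut into a duplex with a 5' and a 3' arm, of which usually 1 arm is kept, and bases 2 to 8 of that arm, the seed, choose its targets. The data bear on how much of this embryonic cluster could be read in the CNS of the late larva and the adult, and in what form.

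In assembly BDGP6 the hairpins lie on chromosome 2R, minus strand, in the single exon of the long noncoding RNA CR44504 (19659645 to 19661847). The first hairpin of the transcript, mir-309, spans 19661706 to 19661774 and the last, mir-6-3, spans 19660716 to 19660795. From first to last the hairpins take 1059 bases, with 42 to 73 bases between neighbours. The annotated order along the transcript is mir-309, mir-3, mir-286, mir-4, mir-5, mir-6-1, mir-6-2 and mir-6-3. These positions were looked up by name and were combined with no position of the build used by the authors.

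The larval library held 822500 and the adult library 1665159 hairpin reads, so that 1 read stood for 1.22 and 0.601 RPM (reads per 1000000 hairpin reads). A count of 0 allows up to 3 reads, which is 3.65 RPM in the larval and 1.80 RPM in the adult library. All intervals are 95% intervals. They and the 3-read limits take in counting error alone, not the spread between animals or preparations. miR-124, a marker of neurons, had 2564 RPM in the larval and 1603 RPM in the adult library. Both muscle markers were called higher in the adult library, but at very unequal levels. mir-1 had 47.4 RPM in the larval and 141 RPM in the adult library, a 2.98-fold difference (2.11 to 4.29). mir-133 had 518 and 13002 RPM, a 25.1-fold difference (22.8 to 27.7), and so made up nearly all of their summed level of 565 and 13143 RPM. The 3 ovary markers had 4 larval and 44 adult reads in all, and 2 of them were at 0 in the larval library. The 6 listed testis markers had 3 larval and 24 adult reads, and the 2 listed fat body markers had 0 larval and 5 adult reads. The part of these tissues in the results below was not tested.

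The cluster as a whole was a trace component of both libraries and was higher in the larval one. With the copies of mir-6 counted once, it had 177 larval reads, 0.0215% of the library, and 55 adult reads, 0.0033%. The levels were 215 RPM (185 to 249) in the larval and 33.0 RPM (24.9 to 43.0) in the adult library, a 6.52-fold difference (4.79 to 8.99). With every mir-6 copy as deposited, the cluster had 216 larval and 61 adult reads, a 7.17-fold difference (5.37 to 9.69). For scale, mir-184, the most abundant hairpin of each library, had 221891 and 127872 RPM. Without mir-286 the rest of the cluster had 59 larval and 24 adult reads and was 4.98-fold higher in the larval library (3.05 to 8.37).

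**Figure D1:**
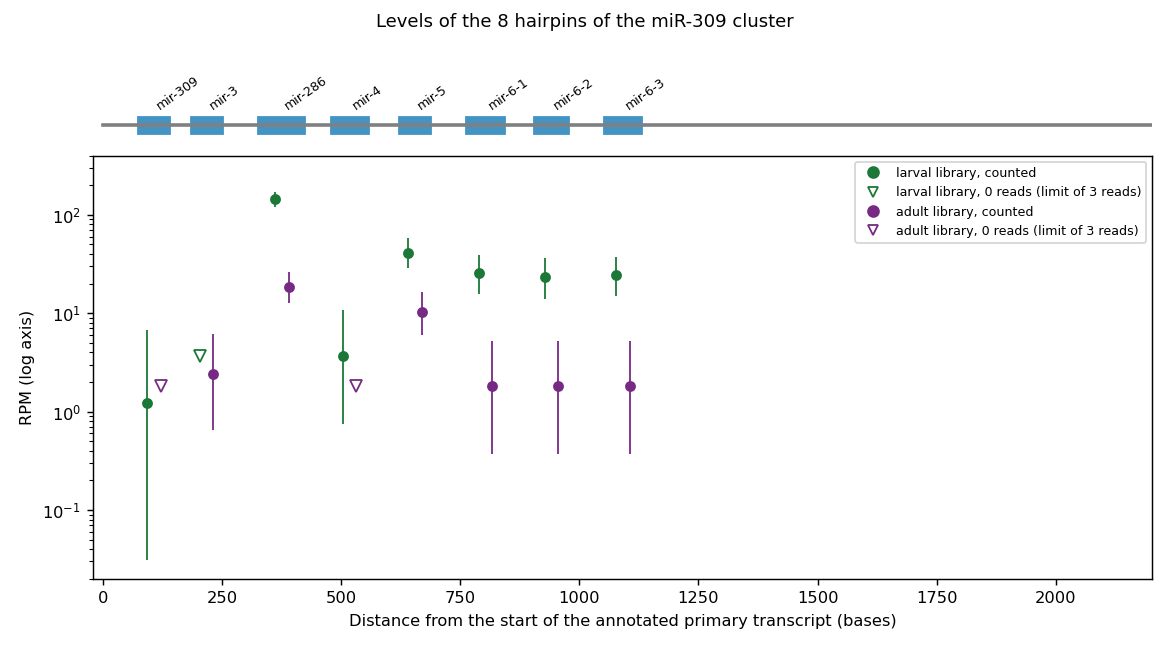
Level of each hairpin in RPM (log axis) against its distance in bases from the start of the annotated primary transcript, with exact Poisson intervals for the larval (green) and adult (purple) library and open triangles for the 3-read limit of a count of 0. mir-286, mir-5 and each mir-6 copy stand higher in the larval library, while mir-309, mir-3 and mir-4 had at most 4 reads in either.

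miR-286, which shares its seed with miR-279 and miR-996, had the most reads of the cluster hairpins in both libraries. It had 118 larval reads, or 143 RPM (119 to 172), and 31 adult reads, or 18.6 RPM (12.6 to 26.4). The intervals do not overlap, and the larval level was 7.71-fold higher (5.15 to 11.8). In rank it was the 68th of the 139 hairpins listed in the larval library and the 101st of the 169 in the adult one. The median listed hairpin had 126 RPM in the larval and 78.1 RPM in the adult library, so miR-286 lay near the middle of the first and below the middle of the second. Its share of the cluster was 66.7% among larval reads (59.2 to 73.6) and 56.4% among adult reads (42.3 to 69.7), and these intervals overlap. With every copy of mir-6 counted as deposited, the shares were 54.6% in the larva (47.7 to 61.4) and 50.8% in the adult (37.7 to 63.9).

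mir-5 came next in both libraries when all reads were counted and each mir-6 copy was taken singly. With larval mature reads alone it stood below mir-6-3, at 17 against 20 reads, and as deposited the mir-6 copies together held 27.8% of the larval cluster against 15.7% for mir-5. It had 34 larval reads, or 41.3 RPM (28.6 to 57.8), and 17 adult reads, or 10.2 RPM (5.95 to 16.3). Its larval level was 4.05-fold higher (2.20 to 7.73), and its share of the cluster was 19.2% (13.7 to 25.8) and 30.9% (19.1 to 44.8). The fold depended on which reads of the hairpin were counted. Of the larval reads 17 lay in neither annotated arm, against 3 of the adult reads, and with mature reads alone, 17 and 14, the fold was 2.42 (1.12 to 5.29).

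miR-6 shares its seed with the miR-2, miR-13, miR-11 and miR-308 family, and with miR-11 is known in the embryo to hold down genes that trigger cell death. Counted as deposited, the larval reads were 21 for mir-6-1, 19 for mir-6-2 and 20 for mir-6-3, which is 25.5, 23.1 and 24.3 RPM. Each had 3 adult reads, or 1.80 RPM. All copies were thus low in the adult library, at the limit that a count of 0 allows, and their folds of 14.2 (4.23 to 74.2), 12.8 and 13.5 are not independent measurements, since the copies share reads.

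No mature read of mir-6 could be placed on a single copy. The copies held 57 larval and 9 adult mature read assignments, and 0 of these were unique to a hairpin. Limits on the distinct mature reads assume that each fitted at least 2 copies, no hairpin outside them, and was counted in each. They were 20 and 28 in the larval library, 24.3 to 34.0 RPM, and 3 and 4 in the adult one. If shared reads were instead divided among the copies, the distinct reads would be 57 and 9. Across these limits the fold ran from 10.1 (3.39 to 40.7), with the fewest larval and the most adult reads, to 18.9 (5.84 to 97.1) at the other end. These limits hold for mature reads of any form. With reads equal to the annotated form only, mir-6-1 had 6 larval and 3 adult reads, a fold of 3.94 (0.842 to 24.4) whose interval includes 1. The larval counts of the copies differed by at most 2 mature reads and by their other reads, of which mir-6-1 had 2, mir-6-2 had 1 and mir-6-3 had 0. Of the 101 larval hairpins with at least 10 mature reads, 3 had no unique mature read, and these were the copies of mir-6, while 88 had unique mature reads only. These counts do not show which copy the reads came from.

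mir-309, mir-3 and mir-4 were at the edge of detection. miR-309 and miR-3 share a seed, and miR-4 is known to pair with the Brd box of genes in the Notch pathway. mir-309 had 1 larval read and 0 adult reads, which leaves both at or under 3 reads. mir-3 had 0 larval reads and 4 adult reads, or 2.40 RPM (0.655 to 6.15), a level under the 3.65 RPM that the larval 0 allows. mir-4 had 3 larval reads, or 3.65 RPM, and 0 adult reads. No difference between the libraries was detectable for these 3 hairpins at this depth.

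Hairpins of the same transcript thus gave unequal numbers of reads. In the larval library mir-3, which had 0 reads, and mir-4, which had 3, lie on either side of mir-286 with its 118. In order of larval level, mir-286 stood above mir-5 and a copy of mir-6 above mir-4 with intervals that did not overlap, while mir-5 overlapped with mir-6-1, mir-4 with mir-309, and mir-309 with mir-3. In the adult library the order was mir-286, mir-5, mir-3 and mir-6-1 with overlap between all neighbours. The efficiency with which different sequences enter a library was not measured, so the counts of different hairpins are read numbers and not amounts of RNA.

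Across the whole table a hairpin was called higher in a library when its ratio was at least 2 with an interval that excluded 1. A hairpin entered this comparison with at least 20 reads over both libraries and 10 RPM in either. Of the 114 hairpins compared, 24.6% had the larval call and 40.4% the adult call. The 5 cluster hairpins compared were mir-286, mir-5 and every mir-6 copy, and all 5 were called higher in the larval library, while the other 3 were under the floor. The mir-6 copies passed the 10 RPM floor through their larval level alone. mir-6-2, with 19 larval and 3 adult reads, needed its adult reads to reach 20. The copies also share reads, and a count over the hairpins that passed is no evidence about the cluster. With a total that left out the 10 most abundant hairpins of either library, the calls over the table went from 28 larval and 46 adult to 41 and 40, and the cluster hairpins kept their calls. The median log2 ratio of adult over larval level was 0.47 over the 114 hairpins, with 0.5 reads added to each count. With mir-6 counted once, 3 hairpins of the cluster were past the floor, and their middle value was that of mir-286, -2.93. Of these 3, mir-6 passed the 10 RPM floor through its larval level alone. The middle value is thus no evidence about the cluster either.

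**Figure D2:**
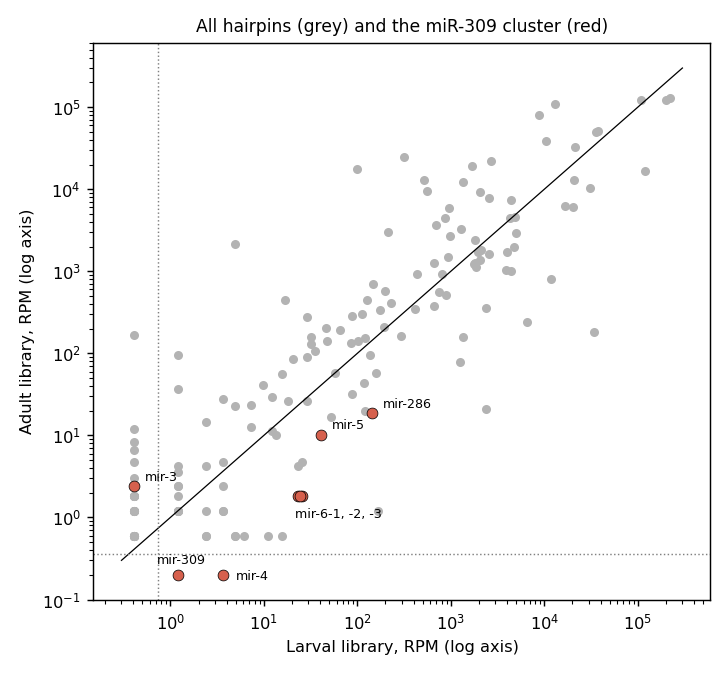
Level of each of the 174 hairpins in the larval (x) and adult (y) library in RPM on log axes, with the line of equal level; hairpins with 0 reads stand outside the dotted lines at an arbitrary place. mir-286, mir-5 and each mir-6 copy (red) lie below the line, and mir-309, mir-4 and mir-3 lie outside the dotted lines because each had 0 reads in a library.

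The authors' deposited table gives the same folds, with Kal's Z-test on the reads of both libraries, which compares these libraries and not the stages. Its Bonferroni-corrected p-value is 0.00253 for mir-5 and 0.000984 for mir-6-1 in the authors' deposited table, and is listed as 0 for mir-286. For mir-309, mir-3 and mir-4 the corrected value in the authors' deposited table is 1.

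The folds of the cluster hairpins were set against each other, as a ratio of folds with its exact conditional interval. Over all reads mir-286 had 1.90 times the fold of mir-5 (0.875 to 4.04) and 0.545 times that of mir-6-1 (0.0979 to 2.01), so no pair was separated by counting error. With mature reads alone the ratio of mir-286 to mir-5 was 3.08 (1.26 to 7.51) and that of mir-6-3 to mir-5 was 5.32 (1.20 to 33.7). These intervals are 2 of 6 and were not adjusted for that number.

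Most reads of the cluster came from the 3' arm, with mir-5 as the exception of more than 1 read. For miR-286 all 117 larval and all 31 adult mature reads lay on the 3' arm, which puts the 3' share above 96.9% and 88.8% by its exact interval. The mature reads of the mir-6 copies, the 4 adult reads of mir-3 and the 3 larval reads of mir-4 were also on the 3' arm. mir-5 had 16 larval and 13 adult reads on the 5' arm and 1 read on the 3' arm in each library, a 3' share of 5.88% (0.149 to 28.7) and 7.14% (0.181 to 33.9). The single read of mir-309 lay on its 5' arm. No cluster hairpin had 20 mature reads in each library with reads on both arms, so none entered the comparison of arm use, in which 17 of 76 hairpins differed. Use of nearly 1 arm is common in these libraries: 64.0% of the 89 larval and 64.4% of the 101 adult hairpins with at least 20 mature reads had at least 95% of them on 1 arm.

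**Figure D3:**
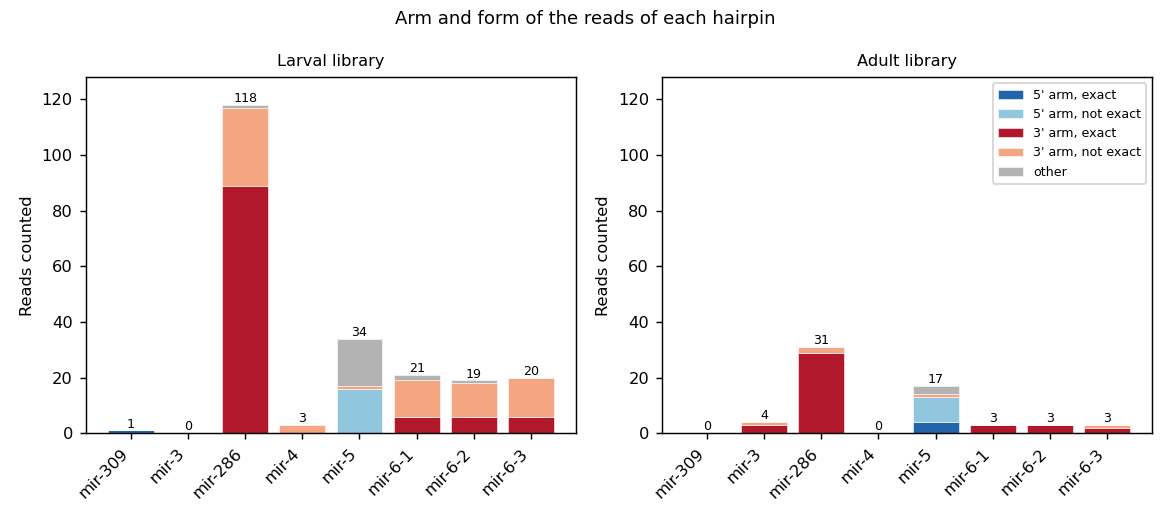
Reads counted for each hairpin in the larval and adult library, stacked by arm, by whether they equal the annotated mature form (exact), and by reads in neither arm (other). The larval bar of mir-5 is made of 16 reads of the 5' arm and 1 of the 3' arm, none exact, and of 17 other reads, whereas the bar of mir-286 is mostly exact 3' reads.

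Reads equal to the annotated mature form were most of the mature reads of miR-286 and few of those of mir-5. For miR-286 they were 89 of 117 larval mature reads, 76.1% (67.3 to 83.5), and 29 of 31 adult ones, 93.5% (78.6 to 99.2), with intervals that overlap. The median share over hairpins with at least 20 mature reads was 65.3% for the larval library (quartiles 37.6 and 83.5) and 55.6% for the adult one (26.5 and 71.8). The share of miR-286 thus lay between the quartiles in the larval library and above them in the adult one. For mir-5 they were 0 of 17 larval mature reads, with an exact interval of 0 to 19.5%, and 4 of 14 adult ones, 28.6% (8.39 to 58.1). This adult share lay between the quartiles, though mir-5 itself had too few mature reads to enter that set. Each mir-6 copy had 6 exact larval reads, a share of 31.6% for mir-6-1 (12.6 to 56.6). In the adult library the exact reads were 3, 3 and 2 for mir-6-1, mir-6-2 and mir-6-3. mir-3 had 3 exact reads of 4 in the adult library, and none of the 3 larval reads of mir-4 was exact.

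Reads outside both arms were the other feature of mir-5. They made up 50.0% of its reads in the larva (32.4 to 67.6) and 17.6% in the adult (3.80 to 43.4), and these intervals overlap. The median share over hairpins with at least 20 reads was 0.797% for the larval library and 1.45% for the adult one. Of the 94 larval hairpins of that depth, 6 had a larger share than mir-5. With 17 adult reads mir-5 was not itself among the 105 adult hairpins of that depth, of which 15 had a larger share than its 3 of 17. miR-286 had 1 such larval read and 0 adult ones. What these reads of mir-5 were, such as pieces of the loop or of the flanks, was not analysed here.

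**Figure D4:**
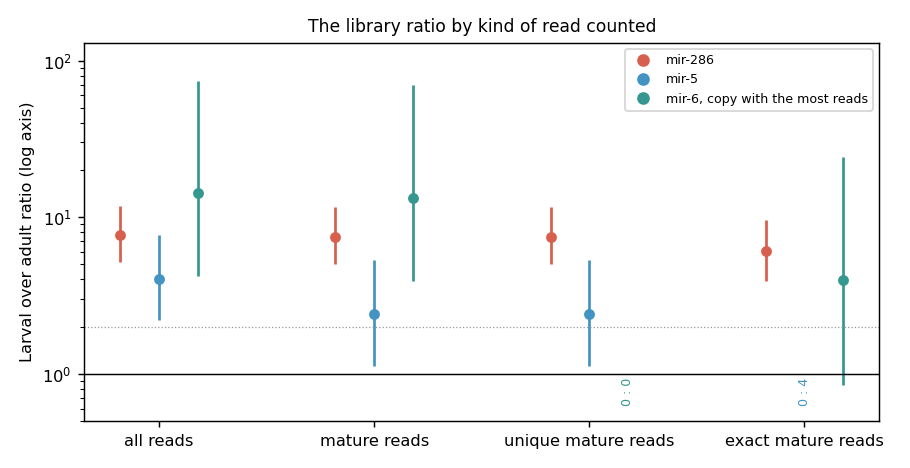
Ratio of larval over adult level (log axis) for mir-286, mir-5 and the mir-6 copy with the most reads, by kind of read counted, each against the library total of that kind, with exact intervals; where a ratio has a 0 the larval and adult counts are printed. mir-286 stays between 6.05 and 7.71 under each kind, and mir-5 goes from 4.05 to 2.42 and then to 0 larval and 4 adult exact reads. mir-6 has no unique read and falls to 3.94 (0.842 to 24.4) with exact reads.

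The seeds of miR-286, miR-6, miR-3 and miR-309 are shared with miRNAs from other transcripts. For miR-286 and miR-6 those relatives supplied most reads of the pool assigned to the seed. The pools were counted as reads on the 3' arm, with each set of copies counted once. They include reads that differ from the annotated form, and that each read carries the seed was assumed and not checked. In the pool of miR-286, miR-279, which limits where the carbon dioxide sensing neurons of the fly form, and miR-996 held the rest: miR-286 had 5.08% of the larval pool (4.22 to 6.06) and 1.03% of the adult pool (0.701 to 1.46). In the pool of miR-6 and its 7 relatives, miR-6 supplied 0.107% (0.0652 to 0.165) of the 18740 reads in the larva and 0.00956% (0.00197 to 0.0279) of the 31371 in the adult. In both pools the larval and adult intervals do not overlap. miR-3 had 4 of 42 adult reads in the pool it shares with miR-309 and miR-318, 9.52% (2.66 to 22.6), and the larval pool had only 4 reads, all of miR-318.

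The folds of these relatives were nearer to 1 or on the adult side. mir-279 was 1.50-fold (1.41 to 1.60) and mir-996 1.73-fold (1.57 to 1.91) higher in the larval library, and neither interval reached that of mir-286. Of the 10 hairpins that share the seed of miR-6, 0 had the larval call, 1, mir-2c, had the adult call and 9 met neither. Over the 114 hairpins compared, 24.6% had the larval call and 40.4% the adult call. The 10 include copies of the same miRNA, which the pool counted once to give 7 relatives. The median log2 ratio of adult over larval level of the 10 was -0.18. mir-318, which shares the seed of miR-3 and miR-309 and is known from the ovary, went the other way and had 4 larval and 38 adult reads, an adult level 4.69-fold that of the larva (1.69 to 18.1). miR-4 and miR-5 were not covered by these pools. mir-79, whose miRNA is known to pair with the Brd box as miR-4 does, was added after its values were seen: it had 72 larval and 53 adult reads, was 2.75-fold higher in the larval library, with a lower bound of 1.90, and had the larval call.

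The other miRNAs known from the ovary and early embryo went both ways. Of 10 in the list 7 were listed and 3 passed the floor. mir-311, of the young miR-310 cluster, had 21 larval and 8 adult reads and was 5.31-fold higher in the larval library (2.26 to 13.9), and its neighbour mir-312 had 19 and 7 reads and was 5.50-fold higher (2.21 to 15.5). The third, mir-318, was the one higher in the adult library. mir-989, an ovary miRNA, had 0 larval and 4 adult reads, mir-994 had 0 and 2, mir-310 had 4 and 1, and mir-313 had 1 and 2.

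**Figure D5:**
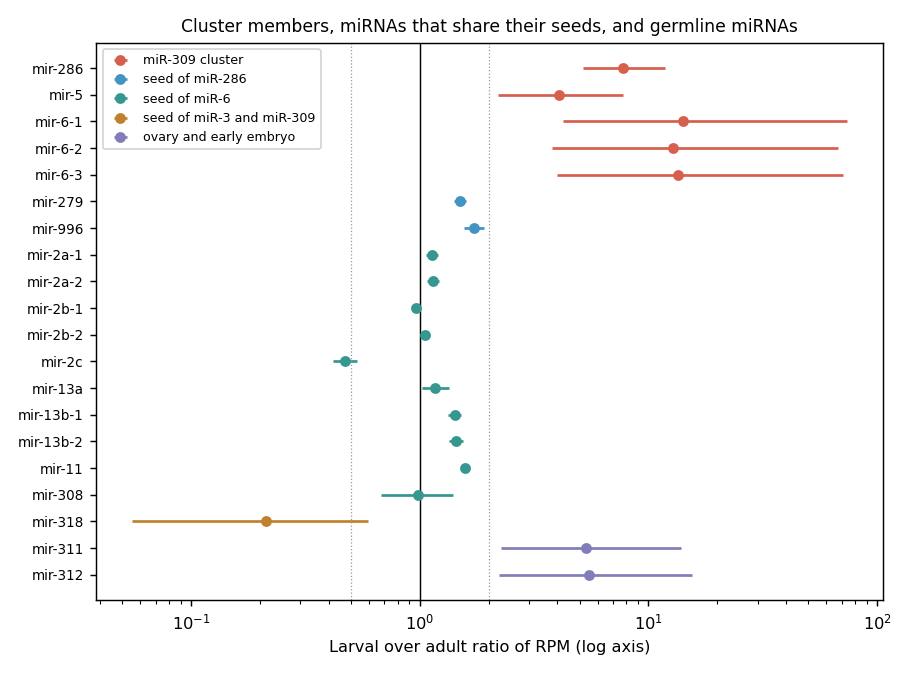
Ratio of larval over adult level (log axis) with exact intervals for the cluster hairpins past the floor. Also drawn are the hairpins listed as sharing the seed of miR-286, miR-6, or miR-3 and miR-309. The other ovary and early embryo hairpins past the floor are drawn too. Dotted lines mark a ratio of 2 either way. The cluster hairpins lie between 4.05 and 14.2, mir-279 and mir-996 at 1.50 and 1.73, and mir-318 on the adult side.

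Among hairpins past the floor, those whose library ratio was most like that of the summed cluster, at a log2 ratio of adult over larval level of -2.69, were mir-998 at -2.76, mir-982 at -2.59 and mir-315 at -2.85. Likeness was the absolute difference of these ratios over 2 libraries. The levels of the 3 differ widely, with 118579 RPM in the larval library for mir-315, 2393 RPM for mir-998 and 120 RPM for mir-982.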

How the data were processed

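For each library the authors deposited a table of raw read counts, with 1 row per miRNA hairpin. Reads are divided into 5' arm, 3' arm and other reads, with exact and unique reads in columns of their own, per the file headers. A read that fits several hairpins was taken to be counted in each. This was not checked. The authors' deposited table of the comparison gives RPM values, a signed fold change treated here as a score, and p-values of Kal's Z-test. The submitters' processing notes name CASAVA 1.8 and the build dm3. The counting program was not given in the sources used here, nor was the miRNA release. The libraries were made from 1 ug of total RNA with a small RNA kit, per the labels' protocols. It has no molecular identifiers, so copies of a molecule were counted as reads.

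Levels are reads over all hairpin reads of a library, with exact Poisson intervals. Ratios have exact conditional binomial intervals (Clopper-Pearson, SciPy 1.17.1) and shares exact binomial ones. With 1 library per stage no p-value was computed. The interval and call code was run on simulated Poisson counts, the model that the intervals assume. These hold no spread between animals or preparations and no shared reads, so the run checks the code alone. Alternatives were edgeR 4.0.16 TMM factors, DESeq2 1.42.0 size factors, a total without the 10 most abundant hairpins, and mature, unique or exact reads only, each against the total of its kind. Counting mir-6 once takes the copy with the most reads, and the seed pools treat copies in the same way. Both undercount if shared reads were divided among copies. Hairpins named are the 8 members, listed relatives by seed, ovary and early embryo miRNAs, tissue markers, and the 3 with the closest ratio. Members and lists were chosen with earlier results of these data known, and seed relatives come from textbook knowledge, since no sequence table was used here. Positions come from Ensembl release 115.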

Additional observations from a re-analysis of the deposited data

How the results depend on the processing

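The log2 ratio of adult over larval level of the whole cluster was -2.69 and ran from -3.22 to -2.27 over 7 alternatives, each with the larval call. mir-286 kept its call under each of its alternatives. The ratio of mir-5 reversed with exact reads only, to 2.19 on the log2 scale, from 0 larval and 4 adult reads under the floor. The mir-6 copies also fell under the floor with exact reads and had no unique reads. The larval cluster level of 215 RPM was 175 with unique and 155 with exact reads only; these settings drop the mir-6 reads or the reads of another form by construction. The share of miR-286 in the larval cluster, 66.7%, was 54.6% with mir-6 copies as deposited and 74.1% with mature reads only. With a fold of 4 the calls over the table were 18 larval and 30 adult. Of 80 levels of single members under an alternative, 66 lay within the counting interval of the main value. The total without the 10 most abundant hairpins moved each log2 ratio by -0.52 and was not run for levels, whose unit it changes. No paired analysis was possible because each stage has 1 library.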
